A study of Mus musculus with 2 samples.

Results

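The Mir29 family of the mouse comprises 4 microRNA genes, Mir29a, Mir29b-1, Mir29b-2 and Mir29c. They were taken from 1973 listed microRNA genes by their stable Ensembl identifiers, and all 4 were present. Their counts were read in 2 small RNA libraries of the heart at embryonic day 10.5, each made from its own pool of mixed-sex B6NCrl embryos (69 embryos for replicate 1 and 51 for replicate 2). The labels call the embryos healthy, name no allele or agent, and give 1 group. The data therefore describe the level of each gene, the balance between the genes, and the difference between the pools. Messenger RNA and other ages were not analysed here, so no value below speaks to when collagen or other fibrosis genes change.

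MicroRNAs are cut from a hairpin precursor into a 5p and a 3p arm, and the arm that is kept guides silencing of messenger RNAs that match its seed, the short stretch near its 5′ end. In the miR-29 family the 3p arm is the main product. Collagens, elastin and fibrillin are among its best-known targets. In the adult heart miR-29 is known from fibroblasts, where TGF-beta signalling lowers it and the matrix genes rise.

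The mature sequences are shown because they set which reads could be assigned to a single gene. They are from RefSeq (GRCm38.p6), 5′ to 3′, with the seed (bases 2 to 8) in capitals. The 3p arms were as follows.
miR-29a-3p: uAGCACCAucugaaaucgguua
miR-29c-3p: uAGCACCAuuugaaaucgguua
miR-29b-3p (from both Mir29b-1 and Mir29b-2): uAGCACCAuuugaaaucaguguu

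All 4 genes shared the same 3p seed, and no other gene of the RefSeq table carried it in a mature arm. Counted from 1 at the 5′ end, miR-29a-3p and miR-29c-3p differed at 1 of 22 bases, C10U (miR-29a-3p first). Between miR-29c-3p and miR-29b-3p there were 3 differences over the 22 compared bases, G18A, U21G and A22U, and miR-29b-3p was 1 base longer. A read that starts at the first base must therefore reach base 10 to separate miR-29a-3p from the others, and base 18 to separate miR-29c-3p from miR-29b-3p. No length of miR-29b-3p tells Mir29b-1 from Mir29b-2.

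The 5p arms are shown because they are where the Mir29b hairpins can be told apart.
miR-29a-5p: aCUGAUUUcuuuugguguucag
miR-29b-1-5p: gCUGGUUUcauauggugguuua
miR-29b-2-5p: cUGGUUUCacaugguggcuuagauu
miR-29c-5p: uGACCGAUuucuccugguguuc

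Each 5p arm had a seed of its own within the family. From the first base, miR-29b-1-5p was unique among all hairpins of the table after 11 bases and miR-29b-2-5p after 10. The longest stretch common to the Mir29b-1 and Mir29b-2 hairpins was 25 bases and held the whole of miR-29b-3p:
shared stretch: ucuagcaccauuugaaaucaguguu

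The longest stretch common to Mir29a and Mir29c was 14 bases. Mir29c shared 22 bases with Mir29b-1 and 19 with Mir29b-2. Outside the family, no hairpin among 1001 others shared more than 13 bases with a Mir29 hairpin.

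The genes form a pair of clusters (mm10). On chromosome 6, minus strand, Mir29b-1 (ENSMUSG00000065604.1) lies at 31063023 to 31063093, and Mir29a (ENSMUSG00000065610.1) lies 275 bases downstream of it at 31062660 to 31062747. Mir29a overlapped no other annotated gene, and Mir29b-1 overlapped 2 bases of an exon of the long non-coding RNA Gm27019. On chromosome 1, plus strand, Mir29b-2 (ENSMUSG00000065412.2) lies at 195037040 to 195037120 and Mir29c (ENSMUSG00000065548.1) 426 bases further, at 195037547 to 195037634. Both chromosome 1 hairpins lie wholly within an exon of the non-coding host transcript A330023F24Rik on their own strand, and opposite an untranslated exon of Cd46, a gene for a complement regulator.

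**Figure D1:**
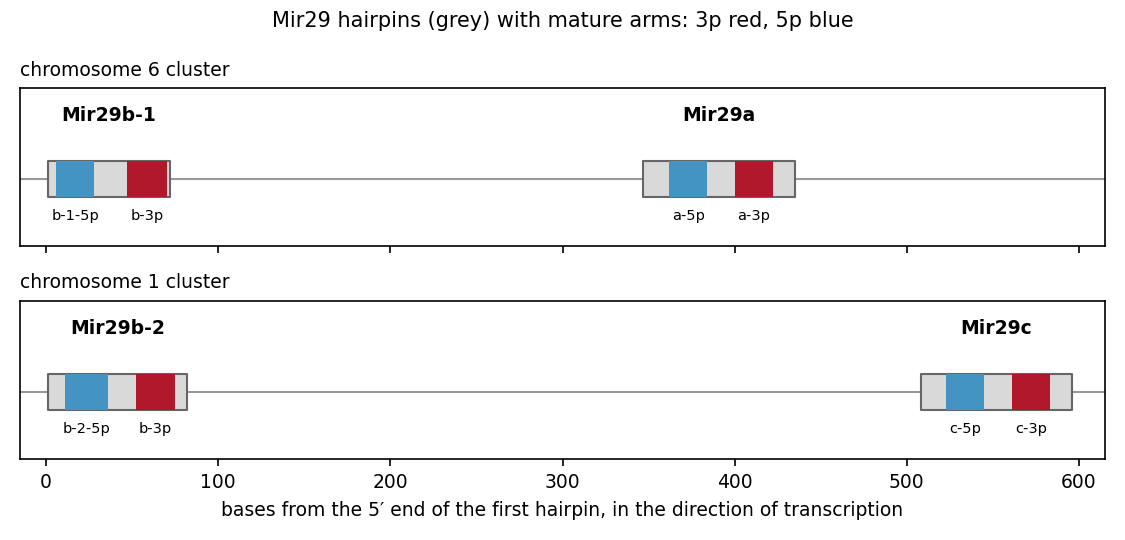
Map of the Mir29 clusters, with distance in bases from the 5′ end of the first hairpin on the x axis, hairpins as grey boxes, 3p arms in red and 5p arms in blue. In both clusters a Mir29b hairpin comes first, followed by Mir29a after 275 bases or Mir29c after 426 bases.

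Levels are given as CPM, each gene's own-strand read count scaled to 1000000 own-strand counts of all genes. The libraries held 4163656 and 4789068 such counts, and 677 and 682 genes had at least 1 count. Reads that mapped to several places, 23.3% and 23.5% of all reads, were listed in a row of their own, apart from the gene rows, and how they were handled is not stated in the sources used here. The libraries differed in the marker lists of other tissues. Summed over each list, cardiac muscle microRNAs (6 listed genes, none at 0) had 34745 CPM in replicate 1 and 69054 CPM in replicate 2. Nearly all of this sum was from Mir208b, Mir208a and Mir499, so the labelled tissue carried these markers. Mir1a-1, Mir133a-1 and Mir133a-2 had at most 17 counts in a library. Mir1a-2, also chosen for this list, was not among the listed genes. The counts of the Mir1a and Mir133a genes are of assigned reads and may be lower limits, so they do not measure the level of miR-1a or miR-133a. Hox-cluster microRNAs (6 genes, none at 0) had 17890 and 2051 CPM, epithelial ones (7 genes, none at 0) 7068 and 2089 CPM, and liver ones (4 genes, none at 0) 3351 and 293 CPM. Erythroid microRNAs (3 genes, none at 0) had 1160 and 1713 CPM. Of these, Mir451a had 947 and 1509 CPM, Mir144 had 120 and 103 CPM, and Mir486 had 93.2 and 101 CPM. Leukocyte genes (4, of which Mir142b was at 0 in both) had 459 and 339 CPM. Neural genes (7, of which 4 were at 0 in both, Mir9-2 and the Mir124a genes) had 70.1 and 37.6 CPM. Mir142 and Mir142hg (leukocyte) and Mir9-1 (neural) were chosen too but were not among the listed genes. The smooth muscle list (3 genes, Mir145b at 0 in both) had 69745 and 86022 CPM, and the single listed endothelial gene, Mir126a, 53306 and 55503 CPM. Mesenchymal genes (5, none at 0) had 9844 and 5711 CPM, and pluripotency genes (5, none at 0) 27853 and 22024 CPM. All these values are of assigned reads only, so a count of 0 or a low sum does not show that a microRNA was absent. How many reads of the genes in these lists are in the row of reads mapped to several places was not tested.

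Mir29a was the most abundant gene of the family as counted. It had 1191 counts in replicate 1 and 1895 in replicate 2, which is 286 CPM (95% exact interval 270 to 303) and 396 CPM (378 to 414). The mean was 341 ± 77.5 CPM (SD, n = 2). By count it held rank 157 in replicate 1 and rank 119 in replicate 2 of all listed genes. Replicate 2 was the higher library, and the counting intervals of the libraries did not overlap.

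Mir29c came next, with 504 and 521 counts, or 121 CPM (111 to 132) and 109 CPM (99.6 to 119). The mean was 115 ± 8.67 CPM (SD, n = 2), at ranks 199 and 192. Here the libraries were close and their counting intervals overlapped.

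The Mir29b genes were counted at far lower levels. Mir29b-1 had 30 and 27 counts, or 7.21 CPM (4.86 to 10.3) and 5.64 CPM (3.72 to 8.20), with a mean of 6.42 ± 1.11 CPM (SD, n = 2). Mir29b-2 had 6 and 8 counts, or 1.44 CPM (0.529 to 3.14) and 1.67 CPM (0.721 to 3.29), with a mean of 1.56 ± 0.162 CPM (SD, n = 2). For each of these genes the libraries overlapped within counting error. Since miR-29b-3p is the same molecule from either gene, the counts do not measure the level of miR-29b, and how many of its reads are in the row of reads mapped to several places was not tested.

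The order Mir29a, Mir29c, Mir29b-1, Mir29b-2 was the same in both libraries. At every step of this order, the lowest library of the higher gene lay above the highest library of the lower gene, and within each library the counting intervals of neighbours did not overlap. The place of the Mir29b genes in this order is a place among assigned reads only. Mir29b-1 and Mir29b-2 together made up 2.08% of the family's counts in replicate 1, with a 95% exact interval of 1.46 to 2.87, and 1.43% (0.997 to 1.98) in replicate 2.

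The hairpins of a cluster lie close together on the same strand, and their assigned counts were far apart. Mir29a exceeded Mir29b-1 39.7-fold in replicate 1 and 70.2-fold in replicate 2. Mir29c exceeded Mir29b-2 84.0-fold and 65.1-fold. Since miR-29b-3p cannot be assigned to a single gene, these are ratios of assigned counts and not of microRNA levels.

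No count lay on the strand opposite to any of the 4 genes in either library. At this depth a count of 0 is compatible with up to 3 counts, or 0.721 CPM in replicate 1 and 0.626 in replicate 2. Reads from Cd46 in the opposite direction were thus not detected at the chromosome 1 hairpins at this depth, and the own-strand and both-strand counts of the family are the same.

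**Figure D2:**
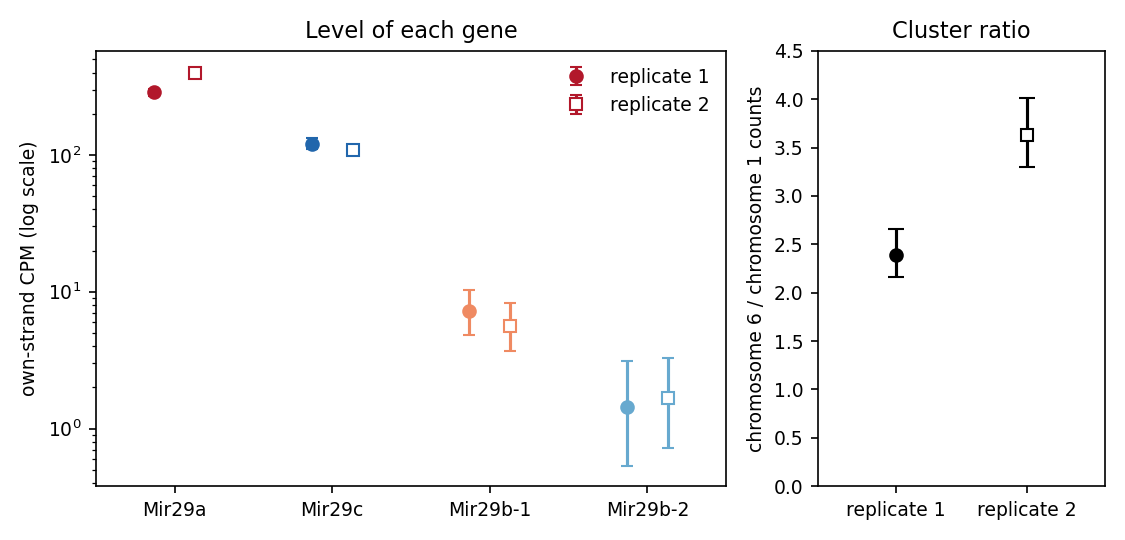
Left, own-strand CPM (log scale) of each Mir29 gene in replicate 1 (filled circles) and replicate 2 (open squares), with bars for 95% exact counting intervals; right, the ratio of chromosome 6 to chromosome 1 counts in each library with the same kind of interval. Mir29a runs from 286 to 396 CPM, Mir29b-2 stays under 2 CPM, and the cluster ratio is 2.39 in replicate 1 and 3.63 in replicate 2.

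As a whole the family was a small part of the assigned counts. Its counts may be a lower limit, since any reads of miR-29b-3p assigned to neither gene are left out. Its share of gene counts was 0.0416% in replicate 1, with a 95% exact interval of 0.0396 to 0.0436, and 0.0512% (0.0492 to 0.0532) in replicate 2, with a mean of 0.0464% ± 0.00679 (SD, n = 2). This is 416 and 512 CPM for 4 genes, beside 151298 ± 16851 CPM (SD, n = 2) for Mir335, the most abundant gene of the tables. The median gene with a count had 6.0 CPM in replicate 1 and 4.59 CPM in replicate 2. Mir29a and Mir29c lay far above this median in both libraries, Mir29b-1 lay slightly above it in both, and Mir29b-2 lay below it in both.

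**Figure D3:**
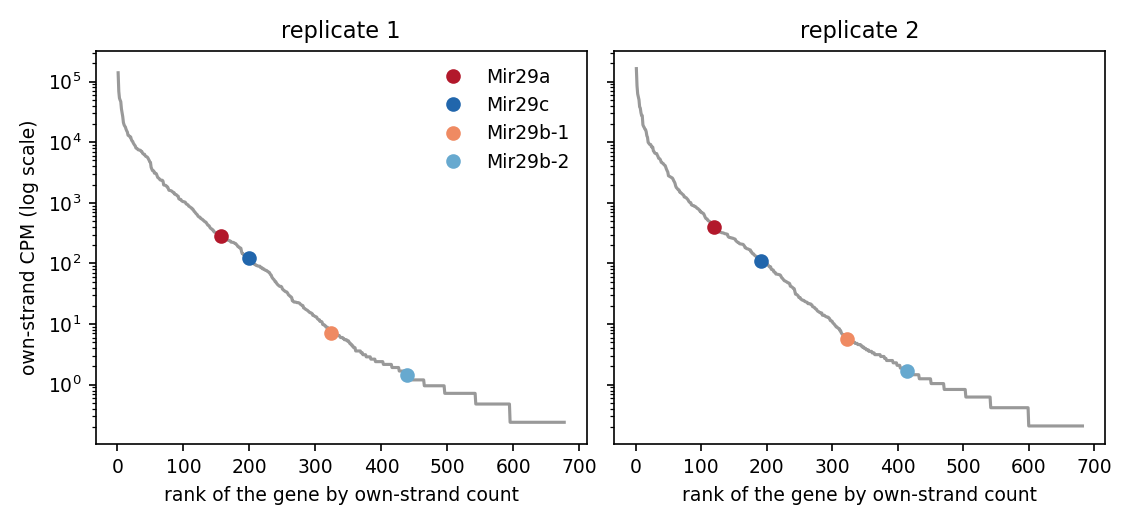
Own-strand CPM (log scale) of every gene with a count, ordered by rank, in replicate 1 (left) and replicate 2 (right), with the Mir29 genes as coloured points. Mir29a sits at rank 157 and 119, Mir29c at 199 and 192, Mir29b-1 at 324 and 322, and Mir29b-2 at 438 and 414, of 677 and 682 genes with a count.

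The chromosome 6 cluster was counted above the chromosome 1 cluster in both libraries. In replicate 1 it had 1221 counts against 510, a ratio of 2.39 (95% exact interval 2.16 to 2.66). In replicate 2 it had 1922 against 529, a ratio of 3.63 (3.30 to 4.01). The chromosome 6 cluster thus made up 70.5% of the family's counts in replicate 1 and 78.4% in replicate 2. The log2 ratio averaged 1.56 ± 0.43 (SD, n = 2). With 2 libraries an exact sign-flip test cannot go below p = 0.5, so the ratio was not tested against equality.

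Nearly all of these counts were from Mir29a and Mir29c, whose hairpins are both 88 bases long. Their ratio was 2.36 (2.13 to 2.63) in replicate 1 and 3.64 (3.30 to 4.02) in replicate 2. The Mir29b genes gave 5 (2.05 to 14.7) and 3.38 (1.49 to 8.60) for Mir29b-1 over Mir29b-2, with wide intervals that held the ratios of Mir29a to Mir29c in both libraries. For reads of the 3p arm, the comparison of Mir29a with Mir29c turns on the single base C10U. The 5p arms of these genes were unique within the family after 3 and 5 bases. The counts are per gene, so which arm the reads came from is not known. The number of mismatches allowed in the alignment is not given in the sources used here, a limit on how sharply these genes were told apart.

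The cluster ratio differed between the libraries. It was 1.52-fold higher in replicate 2 (95% exact interval of the odds ratio 1.31 to 1.75; two-sided Fisher's exact test, p = 9.0e-09, adjusted over 4 ratios 1.8e-08). For Mir29a over Mir29c alone the factor was 1.54 (1.33 to 1.78; Fisher's exact test, p = 3.5e-09, adjusted 1.4e-08). The ratio of Mir29b-1 to Mir29b-2 changed by a factor of 0.679 (0.170 to 2.56; Fisher's exact test, p = 0.56, adjusted 0.56). The share of the Mir29b genes against Mir29a and Mir29c changed by a factor of 0.682 (0.414 to 1.12; Fisher's exact test, p = 0.11, adjusted 0.15). These ratios need no scaling between libraries. The tests compare the libraries beyond counting error and not conditions, and the spread between pools cannot be estimated for a difference between single pools.

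Gene by gene, Mir29a was higher in replicate 2 and the other tested members did not pass. Differences between the libraries were common. An exact binomial test with Benjamini-Hochberg adjustment called 61.6% of 424 genes, with 30.4% higher and 31.1% lower in replicate 2. Beside this background, 1 of the 3 tested Mir29 genes was called, too few genes for a share to be read. Mir29b-2, with fewer than 10 counts in each library, was not among the tested genes.

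Mir29a had a log2 ratio of 0.74 for replicate 2 over replicate 1 (95% exact interval 0.64 to 0.85; exact binomial test, adjusted p = 1.7e-44), a 1.67-fold difference after TMM scaling. Its ratio exceeded in size that of 72.9% of the tested genes, whose median difference was 1.38-fold. With total counts as the scaling it was 1.38-fold higher, with a log2 ratio of 0.47 (exact binomial test, adjusted p = 2.5e-18), and exceeded 48.8% of tested genes. Under that scaling 61.8% of all tested genes passed, 15.6% higher and 46.2% lower in replicate 2, and the median of all tested genes was -0.29 in place of -0.01. Mir29a thus differed beyond counting error under both scalings, by an amount that was ordinary among the genes of these libraries.

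Mir29c had a log2 ratio of 0.12 (-0.06 to 0.30; exact binomial test, adjusted p = 0.26). With total counts as the scaling its ratio was -0.15 (exact binomial test, adjusted p = 0.13), so its direction turned with the scaling. Mir29b-1 had a log2 ratio of -0.08 (-0.89 to 0.72; exact binomial test, adjusted p = 0.91). On 30 and 27 counts its interval allowed differences in either direction and overlapped the interval of Mir29a as well as that of Mir29c.

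The libraries differed in the marker lists given above as well as in Mir29a. From replicate 1 to replicate 2 the summed cardiac muscle microRNAs were 1.99-fold higher, and the summed Hox-cluster, epithelial and liver microRNAs 8.72-fold, 3.38-fold and 11.4-fold lower. The cardiac muscle sum was mostly Mir208b, with 21037 CPM in replicate 1 and 49967 CPM in replicate 2. Mir208a, Mir499 and Mir133a-1 were higher in replicate 2 too. By assigned reads, which may be a lower limit here, Mir1a-1 (4.08 and 3.13 CPM) and Mir133a-2 (1 count in each library) were not. The liver sum was mostly Mir122, named here after its values were seen, with 3078 CPM in replicate 1 and 175 CPM in replicate 2. The other 3 liver genes summed to 272 and 118 CPM, 2.30-fold lower, and Mir194-1 among them was higher in replicate 2 (13.9 and 30.9 CPM). The mesenchymal list, which holds Mir199, Mir214 and Mir140 genes, was 1.72-fold lower in sum. Its highest gene in replicate 1 was Mir214, with 5982 CPM there and 2614 CPM in replicate 2. Mir140, with 3389 and 2792 CPM, had a log2 ratio of -0.005 after TMM scaling (exact binomial test, adjusted p = 0.83). Of the 5 tested genes of this list, 3 passed as lower after TMM scaling and 5 with total counts. The part of these lists in the Mir29a difference was not tested. Fewer cells of a type and less microRNA per cell cannot be told apart in such bulk libraries.

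**Figure D4:**
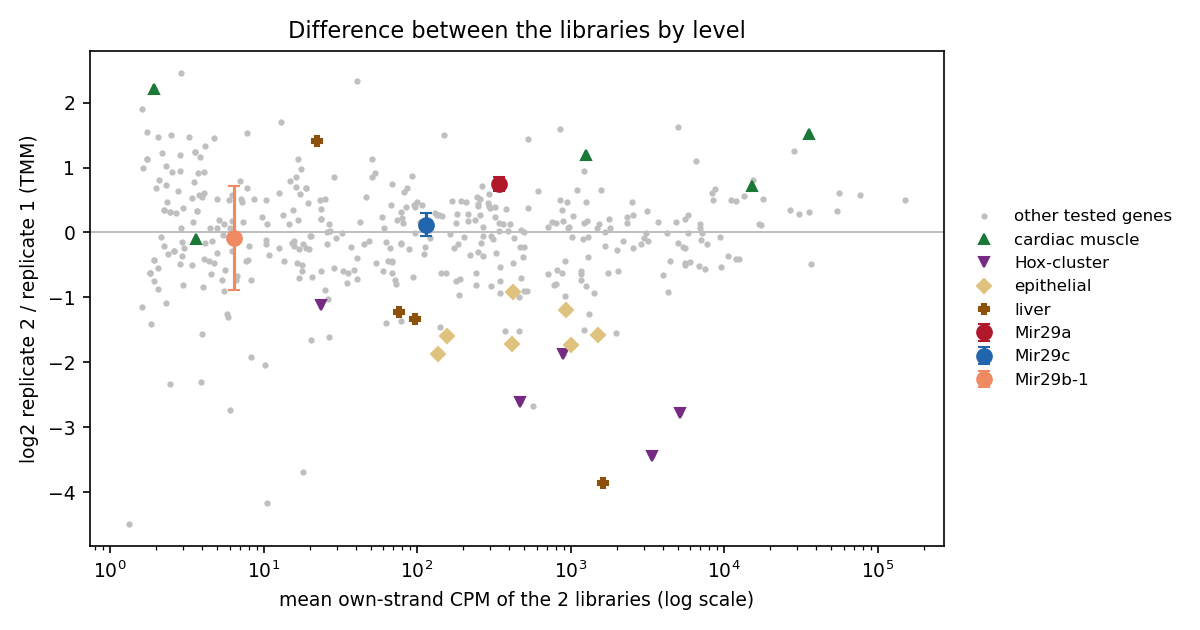
Log2 ratio of replicate 2 over replicate 1 after TMM scaling (y axis) against the mean own-strand CPM of the libraries (x axis, log scale) for the 424 tested genes, with Mir29 genes and 4 marker lists coloured and bars for the 95% exact intervals of the Mir29 genes. Mir29a lies at 0.74, Mir29c at 0.12 and Mir29b-1 at -0.08, while all tested Hox-cluster and epithelial genes lie below 0.

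Other microRNAs known from cardiac fibrosis were counted over a wide range around the Mir29 genes. Of 27 such genes chosen for this comparison, 26 were among the listed genes. Both Mir29a and Mir29c lay in the middle of them. Of the 26, 9 were above Mir29a in both libraries and 10 were below Mir29c in both. This is a place among assigned counts only, since at least 6 of these 10 (genes of Mir26a, Mir30c and Mir199a) have a mature arm that also lies in another hairpin of the RefSeq table. The highest were Mir26b with 30577 ± 40.3 CPM, Mir30e with 26887 ± 868, Mir21a with 17824 ± 2123, Mir30a with 13538 ± 1900 and Mir22 with 8727 ± 1693 CPM (SD, n = 2). Mir21a, known for its rise in the fibrotic heart, thus had 16323 CPM beside 286 CPM of Mir29a in replicate 1, and 19325 CPM beside 396 CPM in replicate 2. Mir30 microRNAs are known to target connective tissue growth factor, as is miR-133a. Mir133a-1 had 3 and 15 counts and Mir133a-2 had 1 count in each library. The Mir133a genes, like others of this list (Mir199a, Mir26a, Mir30c), produce the same mature arm from more than a single gene, so their counts may be lower limits.

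Between the libraries, 15 of the 25 tested fibrosis-linked genes were higher and 5 lower in replicate 2, with a median log2 ratio of 0.30 beside -0.01 over all tested genes, of which 30.4% were higher and 31.1% lower. With total counts as the scaling, 9 were higher and 8 lower, with a median of 0.02 beside -0.29, and beside 15.6% higher and 46.2% lower of all tested genes. Mir29a, at 0.74 and 0.47, lay above the median of this list under both scalings. Mir29c, at 0.12 and -0.15, lay below it. The let-7 family, known to accumulate as tissues mature, was higher in replicate 2 for all 9 tested genes beside 30.4% of all genes tested, with a median log2 ratio of 1.14. With total counts it was higher for 8 beside 15.6%, with a median of 0.86. Summed, it had 8455 and 17725 CPM.

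The genes whose level was nearest to a Mir29 gene in both libraries were found by the distance between log2(CPM + 1) values over the 2 libraries. For Mir29a they were Mir330 with 309 and 335 CPM (distance 0.26), Mir700 with 263 and 328 CPM (0.30) and Mir27a with 287 and 309 CPM (0.36). The levels of Mir29a lay further apart between the libraries than those of each of these genes. For Mir29c they were the erythroid gene Mir144 with 120 and 103 CPM (distance 0.08), Mir669c with 130 and 111 CPM (0.11) and Mir3074-1 with 137 and 107 CPM (0.18). For Mir29b-1 they were Mir5626 with 29 and 26 counts, Gm23388 with 28 and 26 and Mir212 with 28 and 25, all within 0.13. The likeness is one of level in 2 libraries.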

How the data were processed

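Small RNA (under 30 bases by the labels' size range) was sequenced by ENCODE. The authors deposited whole-number read counts per gene, unnormalized, from each library's own alignment to mm10 with GENCODE M4 genes, per the deposited README files. Neither the aligner and its settings nor the trimming is given in the sources used here. Each table gives counts over both strands, on the gene's own strand and on the opposite strand. Own-strand counts were used. Rows that name no gene stayed out of totals. Unmapped reads were 26.3% and 25.5% of all reads, multiply mapped reads 23.3% and 23.5%, and reads outside genes 8.98% and 7.41%. Of 1973 identifiers, 1894 matched GENCODE M21 (also mm10). All 4 members matched RefSeq (GRCm38.p6) by symbol.

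Because each read covers a mature microRNA, counts were not divided by length. Intervals are exact (Clopper-Pearson, 95%, scipy 1.17.1) and, like the limits of 3 counts for a count of 0, cover counting error alone, because no molecular identifiers mark independent molecules. Genes that reached 10 counts in either library were compared by an exact two-sided conditional binomial test at TMM library sizes (edgeR 4.0.16), with Benjamini-Hochberg adjustment at 0.05 over all tested genes and a prior count of 0.5. The test was checked on simulated data. Alternatives were total counts, DESeq2 1.42.0 size factors, both-strand counts, no filter, a pseudocount of 1, other denominators, and each replicate alone. Genes named are the members, the 3 nearest to each member with at least 10 counts in both libraries, the highest genes of the fibrosis-linked list, and the most abundant gene of the tables. Genes of other lists are named where they were at 0 or not among the listed genes, where a member was compared with them, or to show what a list holds. Genes of the cardiac muscle, liver, mesenchymal and erythroid lists that led a sum or did not follow it were named after their values were seen. The members and lists were chosen with earlier results of these data known.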

Additional observations from a re-analysis of the deposited data

How the results depend on the processing

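Of 59 values recomputed under the alternatives for 12 results, 50 kept their direction and their side of the threshold, or moved by less than the SD between the libraries. Some of these 50 could not have come out otherwise. A level or share from 1 of 2 libraries always lies within the SD of their mean. The cluster ratios could not change with both-strand counts, since no count lay on the opposite strand. The log2 ratio of Mir29c turned from 0.12 to -0.15 with total counts as the scaling, and passed the exact binomial test under neither. The family's share rose from 0.0464% to 0.0547% when Mir335 was left out of the total, and with it the CPM of each gene rose by the same factor within a library. With reads mapped to several places and outside genes in the denominator, Mir29a had 196 CPM and Mir29c 65.8 CPM. With each replicate alone, the share was 0.0416% to 0.0512% and the log2 cluster ratio 1.26 to 1.86. The number of Mir29 genes that passed was 1 under every scaling, strand and filter tried, and it was Mir29a each time. With no filter on low counts Mir29b-2 was tested too, at a log2 ratio of 0.44, and did not pass (exact binomial test, adjusted p = 0.83). The Mir29b genes had at most 30 counts in a library, so their intervals are wide, and the part of reads of the common 3p arm that were assigned to neither gene was not tested.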
